A study of Mus musculus with 20 samples.

Results

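The 5 non-irradiated samples of a mouse bone marrow series of 20 arrays are described here on their own, as a baseline profile. They were chosen by their titles, and the signals described below are theirs alone. Each array was hybridized with amplified RNA of marrow cells, given in the labels as VE-cadherin+ endothelial cells. The donors were adult C57/Bl6 mice, 8 to 10 weeks old, that had received no radiation. The other 15 samples of the series carry labels of 5 Gy total body irradiation and are not analysed here. The 5 samples are called biological replicates. Neither pooling of animals nor the sex of the mice is stated. With only 1 group there is nothing to test, so every value is a description with its spread over 5 arrays (SD, n = 5).

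VE-cadherin, the product of Cdh5, is the adhesion protein of the junctions between endothelial cells. Marrow endothelium lines arterioles and the wide, leaky sinusoids through which mature blood cells leave the marrow. It is known as a source of stem cell factor, Cxcl12 and Notch ligands, signals that keep blood stem cells in place and alive. Reticular stromal cells that carry the leptin receptor lie against the sinusoids and are known for the same secreted factors, and developing blood cells fill the space between.

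The values are probe set intensities on a linear scale, called signals here. Each of 18193 named genes was represented by its brightest probe set, and genes were ranked by mean signal, with a percentile among all genes. A signal also depends on how well a probe set binds its transcript, and probe sets of the same gene show by how much. Over 9010 genes with several probe sets, the brightest read 1.96-fold above the next at the median and 7.54-fold at the 90th percentile. An order between genes is therefore an order of signals, not of transcript numbers. The lower limit was taken from 27 probe sets for bacterial genes that are absent from the sample. Their 95th percentile, the bacterial control level, lay between 23.3 and 41.6 on the 5 arrays. Of the genes, 12831 (70.5%) lay above it on every array, 1450 (7.97%) at or under it on every array, and 3912 (21.5%) above it on some. Array medians over all probe sets lay between 167 and 194, and pairs of arrays correlated at 0.934 to 0.942 over genes, which are not independent replicates.

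Among genes with a probe set of their own, the brightest transcripts were those of a neutrophil protein pair, ribosomal proteins, collagen and a chemokine, together with housekeeping genes. Probe sets shared by several genes were not ranked. Those of the adult beta globins and of Tuba1b and Gm5620 averaged 23766 and 20111, as bright as genes among the 25 brightest. S100a9, which with S100a8 forms the calcium-binding complex calprotectin of neutrophils, had the highest mean signal, at 35429 ± 1782. Its 5 arrays read 34204, 33026, 36545, 37399 and 35971. S100a8 read 27542, 29052, 31090, 32486 and 30906, with a mean of 30215 ± 1930. Both genes were among the brightest on all 5 arrays.

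Between them in the order stood Rps29, a protein of the small ribosomal subunit, at 31780 ± 1705, and Malat1, a nuclear noncoding RNA, at 31136 ± 3882. Malat1 read 24309 on replicate 1 and between 31979 and 33611 on the other 4. ND5, a mitochondrially encoded subunit of respiratory complex I, followed at 27180 ± 967, then Hnrnpab, an RNA-binding protein, at 26316, and Actb, the cytoplasmic actin, at 26205. Tuba4a, an alpha tubulin, read 25192, but its other 2 probe sets read 3844 and 190, so its place rests on 1 probe set.

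The rest of the 25 brightest held 3 genes of the stromal list. Col1a2 and Col1a1, the chains of type I collagen, averaged 24766 ± 1962 and 23234 ± 1337. Cxcl12, the chemokine that retains blood stem cells and B cell precursors in marrow, averaged 23988 ± 1363 on arrays that read 21860, 23487, 25046, 25161 and 24384. Sparc, a collagen-binding matrix protein, Fth1, the ferritin heavy chain, Hspa8, a constitutive chaperone, Cd24a, a surface glycoprotein of immature blood cells, and B2m, the light chain of MHC class I, were also among them. Rps28, Rps20, Rps24, Rps9, Rpl38, Rpl13a and Rpl35 brought the ribosomal proteins to 8 of the 25, and Hmgn1 and Hnrnpa2b1, a nucleosome-binding and an RNA-binding protein, completed the set. In none of the 24 pairs of neighbours in this order were the 5-array ranges apart, so neighbours are not ordered. Genes further apart can be: every array of S100a9 lay above every array of S100a8. Probe sets whose names end in _x_at, _s_at or _a_at, called suffixed here, can cross-hybridize or match variants of the same gene. Without them, Hmgn1, Rpl35, Rps20, Rps9 and Rps24 fell to percentiles 17.8, 54.3, 55.7, 72.3 and 77.4. Most of the 25 were represented by suffixed sets, and S100a8 and Rpl38 had no other set with their name alone. The 10, 100 and 1000 brightest genes held 1.75%, 10.9% ± 0.36 and 43.9% ± 0.75 of the summed signal.

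**Figure D1:**
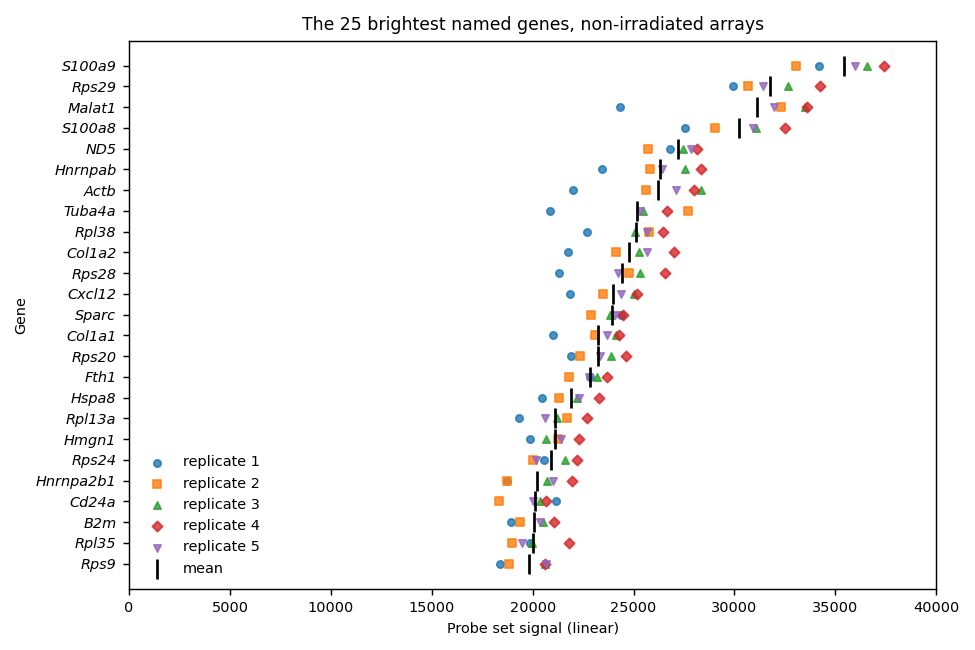
The 25 named genes with the highest mean signal in non-irradiated marrow VE-cadherin+ cells, without probe sets shared by several genes. Each marker is the probe set signal of 1 array on a linear axis that starts at 0, and the black bar is the mean. S100a9 leads at 35429, the ranges of neighbours overlap in every pair, and replicate 1 lies lowest for Malat1.

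The label was set against 4 lists of endothelial markers. All 27 measured pan-endothelial genes lay above the bacterial control level on every array, where 70.5% of all genes did. Their median percentile was 75.4, between 73.7 and 76.7 on single arrays. None of the 27 was among the brightest 1000 genes, a class that holds 5.50% of all genes. The endothelial transcripts named by the label were thus present on every array at middle to high signal and were not the brightest lineage genes.

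Cdh5, the gene of the sorting marker, was the brightest of the pan-endothelial list. It read 3312, 2829, 3961, 3115 and 2710, with a mean of 3186 ± 494 at percentile 93.9, and its other probe set averaged 1235. Egfl7, a secreted regulator of vessel assembly, averaged 2189 ± 127, and Flt1, a VEGF receptor that binds ligand tightly, 2092 ± 171. Pecam1, the adhesion molecule CD31, read 1516, 1561, 1153, 1189 and 1058, a mean of 1295 ± 228. The dimmest members were Mcam, Clec14a and Sox7, with means of 208, 211 and 245, still above the control level on every array.

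Of the sinusoidal list, 13 of 14 measured genes were above the level on every array, with a median percentile of 65.1. Vcam1, the adhesion molecule that binds the integrin of blood progenitors, led it at 6161 ± 345, and Maf, a transcription factor of sinusoidal endothelium and macrophages, averaged 3250. Flt4, the receptor of VEGF-C that marks sinusoids and lymphatic vessels, read 1969, 2721, 3009, 2312 and 2221. The scavenger receptors Stab2 and Stab1 averaged 975 ± 110 and 550 ± 73, and their ranges did not overlap. Clec4g, a lectin of liver sinusoids, was the only sinusoidal gene not above the level throughout, at 39.9 ± 23.4.

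The arterial list had 14 of 16 measured genes above the level on every array, at a median percentile of 73.8. Cxcr4, the receptor of Cxcl12, which leukocytes also carry, averaged 7213 ± 296. Vegfc, a growth factor for Flt4, averaged 4619 ± 750 and Nrp1, a VEGF co-receptor, 2983 ± 296. The arterial connexins were dim: Gja4 read 110, 158, 26.3, 155 and 57.5, and Gja5 averaged 53.2 ± 26.1, each above the level on 4 of 5 arrays. Of the 4 measured lymphatic genes, Mmrn1, Pdpn and Reln averaged 378, 276 and 78.6. Prox1, the factor that sets lymphatic identity, read between 6.07 and 79.3 on the 5 arrays and was above the level on 3 arrays.

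Among the lists of other cell types, 4 read brighter than every endothelial list. Erythroid, neutrophil, stromal and pan-leukocyte genes had median percentiles of 94.2, 92.9, 91.2 and 94.6. The other 8 blood lists had medians of 31.5 to 72.3, under the pan-endothelial 75.4. The erythroid, neutrophil, stromal and pan-leukocyte lists placed 10 of 24, 8 of 22, 11 of 24 and 10 of 19 measured members among the brightest 1000 genes. Summed over its members, the pan-endothelial list read 28164 to 30855 on the 5 arrays, against 102580 to 110114 for the erythroid, 151795 to 172694 for the neutrophil and 126354 to 139010 for the stromal list. These sums depend on the number of genes in a list and on how well each probe set binds, so they give no shares of RNA or cells. The label names endothelial cells, yet genes that define other marrow lineages were above the control level on every array, and the samples are called VE-cadherin sorted cells below. In such bulk samples, fewer cells of a type and less RNA per cell cannot be told apart, and the part of other cells in any value was not tested.

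**Figure D2:**
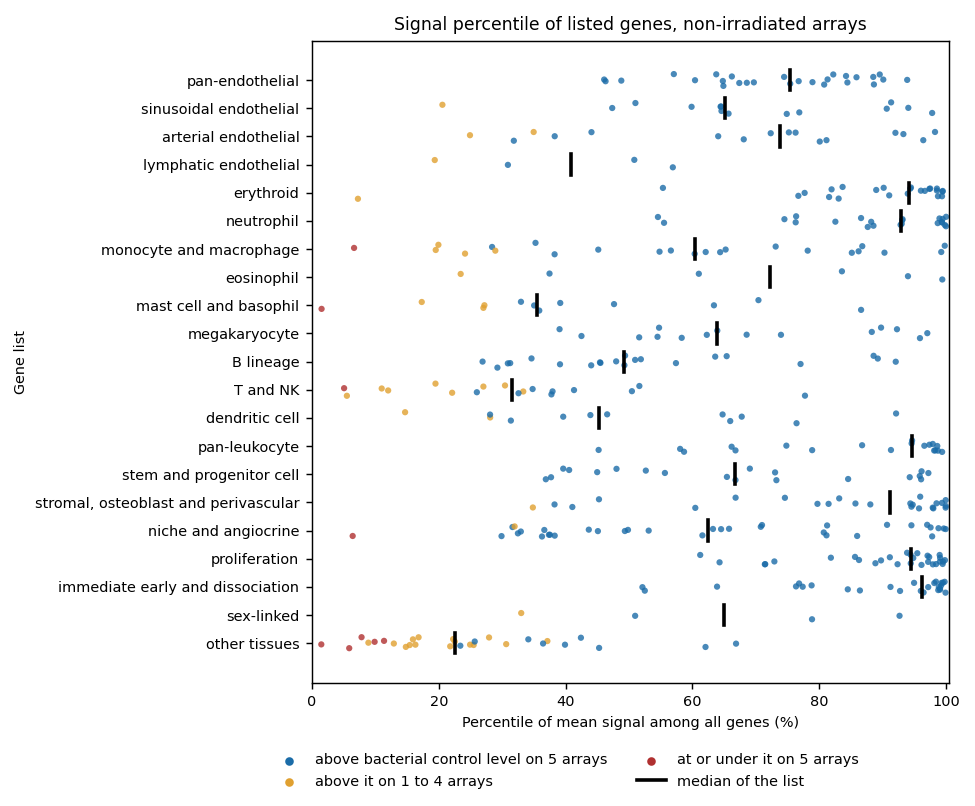
Percentile of mean signal among all 18193 genes for the measured members of 21 gene lists in non-irradiated VE-cadherin sorted cells. Each dot is 1 gene, coloured by its place against the bacterial control level, and black bars are list medians. The pan-endothelial median is 75.4, erythroid, neutrophil, stromal and pan-leukocyte medians lie above 91, and the list of other tissues lies at 22.5.

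Of the red cell genes, 23 of 24 measured were above the level on every array. Slc4a1, the anion exchanger of the red cell membrane, averaged 12749 ± 399, with no array outside 12133 to 13078. Ermap, a red cell adhesion protein, averaged 12430 ± 365. Hemgn, a nuclear factor of erythroid and progenitor cells, read 7592, 13244, 14212, 12262 and 12389, so replicate 1 was the lowest. Fech and Alas2, enzymes of haem synthesis, averaged 3421 ± 267 and 2009 ± 182. The regulators Klf1 and Gata1 averaged 5693 ± 288 and 1357 ± 122, and Epor, the erythropoietin receptor, 2378 ± 429. The adult beta-globin probe set that several globin genes share read 22092, 22431, 24241, 26148 and 23917.

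Alpha globin was split between near-identical genes. Hba-a2 averaged 4849 ± 315, while the probe set named for Hba-a1 averaged 13.5 ± 11.5 and was above the level on 1 array only. The transcripts of these copies are nearly the same, so neither signal can be assigned to 1 copy with certainty, and the cause of the difference was not tested. The embryonic globins Hba-x, Hbb-bh1 and Hbb-y averaged 5.35, 31.2 and 19.1, and none was above the level on every array.

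Promoter sequence is shown for 4 of the bright erythroid genes because erythroid promoters are known targets of GATA factors. The stretches run from 250 bases before to 20 after the RefSeq start (build GRCm38.p6) and are printed in the direction of transcription. Capitals mark GATAA or its reverse complement TTATC.
Ermap, chr4:119189976-119190245, minus strand: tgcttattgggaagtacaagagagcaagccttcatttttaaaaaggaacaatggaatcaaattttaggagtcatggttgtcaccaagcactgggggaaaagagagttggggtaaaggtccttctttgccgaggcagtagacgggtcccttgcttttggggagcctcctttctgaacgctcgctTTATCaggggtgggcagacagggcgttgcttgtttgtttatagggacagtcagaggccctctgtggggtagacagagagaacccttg
Hemgn, chr4:46404164-46404433, minus strand: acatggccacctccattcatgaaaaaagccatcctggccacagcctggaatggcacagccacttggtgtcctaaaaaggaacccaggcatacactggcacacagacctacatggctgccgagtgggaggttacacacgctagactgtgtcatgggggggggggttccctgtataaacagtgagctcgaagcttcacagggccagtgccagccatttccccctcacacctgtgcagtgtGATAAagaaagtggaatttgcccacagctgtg
Klf1, chr8:84901732-84902001, plus strand: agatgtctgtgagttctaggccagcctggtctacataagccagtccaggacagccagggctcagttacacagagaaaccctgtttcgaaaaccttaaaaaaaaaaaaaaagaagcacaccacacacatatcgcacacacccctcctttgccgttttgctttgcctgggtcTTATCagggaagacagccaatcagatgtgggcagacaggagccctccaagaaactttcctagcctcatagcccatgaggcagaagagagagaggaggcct
Epor, chr9:21963557-21963826, minus strand: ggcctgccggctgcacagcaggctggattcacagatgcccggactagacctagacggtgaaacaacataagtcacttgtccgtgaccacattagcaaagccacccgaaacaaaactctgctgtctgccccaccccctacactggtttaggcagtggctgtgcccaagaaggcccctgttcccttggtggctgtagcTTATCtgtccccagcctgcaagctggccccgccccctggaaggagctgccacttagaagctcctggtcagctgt
Each stretch holds 1 match, whose leftmost base lies at -67 in Ermap, -12 in Hemgn, -80 in Klf1 and -54 in Epor. They were chosen because they hold it: 12 of 18 erythroid promoters in the table do, and 19.1% of all promoters. All 4 stretches are poor in CG pairs, with 5, 3, 3 and 6.

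All 22 measured neutrophil genes lay above the level on every array. After the S100a9 and S100a8 pair came Ngp, a granule protein of immature neutrophils, at 17677 ± 995. Mpo, the myeloperoxidase of primary granules, averaged 11860 ± 494, and Camp and Ltf, proteins of later granules, 11828 ± 1028 and 8560 ± 784. The dimmest were Itgam, the integrin subunit CD11b, at 334 ± 90.9, and Padi4, an arginine deiminase, at 352 ± 46. Granule genes of early and of late stages were thus both bright.

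The promoters of the 2 brightest neutrophil genes are shown in the same frame, with TATAAA in capitals.
S100a9, chr3:90695702-90695971, minus strand: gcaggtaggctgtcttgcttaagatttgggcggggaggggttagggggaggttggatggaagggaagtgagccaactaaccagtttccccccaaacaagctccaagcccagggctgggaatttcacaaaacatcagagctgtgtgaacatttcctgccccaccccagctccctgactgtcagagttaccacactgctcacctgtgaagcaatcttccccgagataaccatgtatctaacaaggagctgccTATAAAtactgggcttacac
S100a8, chr3:90668821-90669090, plus strand: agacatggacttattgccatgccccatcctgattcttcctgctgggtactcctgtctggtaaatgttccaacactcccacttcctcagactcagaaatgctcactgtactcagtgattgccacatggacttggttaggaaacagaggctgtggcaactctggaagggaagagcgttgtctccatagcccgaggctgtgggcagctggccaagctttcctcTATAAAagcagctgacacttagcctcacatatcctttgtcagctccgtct
The match starts at -30 in S100a8, the usual place of a TATA box, and at the base 1 of the listed transcript in S100a9. Of the neutrophil promoters in the table, 7 of 21 hold TATAAA or its reverse complement TTTATA, which 9.87% of all promoters hold, and 21.3% of promoters with 0 to 5 CG pairs. The neutrophil promoters had a mean of 4.43 pairs.

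Other blood lineages were uneven. Eosinophil granule genes were bright, with Prg2, the major basic protein, at 12236 ± 897 and Epx, the eosinophil peroxidase, at 3239 ± 264. Prg3, a homologue of Prg2, averaged 1392 ± 179, while the surface receptor Ccr3 averaged 48.5 ± 40.7 and was above the level on 3 arrays. Of the megakaryocyte list all 15 measured genes were above the level. The platelet chemokines Pf4 and Ppbp averaged 5217 ± 433 and 4212 ± 220, and Itgb3, the beta subunit of the fibrinogen receptor, 2686 ± 422.

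Lysozyme genes led the monocyte and macrophage list, whose median percentile was 60.3. Lyz1 averaged 17554 ± 938 on an _x_at set, and Lyz2, which neutrophils also express, 11108 ± 643. Whether the Lyz1 set also binds Lyz2 transcripts was not tested. Without the suffixed probe sets Lyz1 fell to percentile 35.5. Ctss, a cathepsin of antigen-presenting cells, averaged 2211 ± 156. Some genes of resident macrophages were much dimmer. Adgre1, the F4/80 antigen, averaged 103 ± 26.4, and the complement genes C1qa and C1qc 50.8 ± 37.3 and 37.1 ± 43.4. Timd4, a receptor for dying cells, averaged 12.7 ± 10.9, at or under the level on every array. Not all such genes were this low. Of the list, 18 of 23 measured genes were above the level on every array, C1qb, Cd5l and Mertk among them.

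Lymphoid genes were dim, with median percentiles of 49.3 for the B lineage and 31.5 for T and NK cells. Ighm, the heavy chain of IgM, averaged 2637 ± 238, Sdc1, the plasma cell marker CD138 that other cells also carry, 2044 ± 232, and Jchain, which joins secreted IgM and IgA, 1953 ± 163. All 21 B lineage genes were above the level on every array. Without the suffixed probe sets Ighm stood at percentile 55.6 in place of 92.1. Of the T and NK list only 9 of 18 were, below the 70.5% of all genes. Prf1, the pore-forming perforin, averaged 1021 ± 248, Nkg7 288 ± 34.6 and Ccl5 270 ± 86.2. Cd3e, a subunit of the T cell receptor complex, read 11.2, 3.95, 5.73, 8.12 and 26.3, above the level on 1 array. Ncr1, an activating receptor of NK cells, was at or under it on every array at 10.5 ± 10.6.

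Mast cell and basophil genes had a median percentile of 35.4, with Hdc, which makes histamine, at 1708 ± 162, Mcpt8, a basophil protease, at 717 ± 164 and Ms4a2, a chain of the IgE receptor, at 521 ± 120. Tpsab1, a mast cell tryptase, was at or under the level on every array at 5.12 ± 2.37. The dendritic cell list had a median percentile of 45.2, and its brightest member Tcf4, a factor of plasmacytoid cells that many cells express, averaged 2648 ± 281. Cd74, the MHC class II chaperone, averaged 953 ± 133, and Bst2 634 ± 92.7.

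All 19 stem and progenitor genes were above the level, at a median percentile of 66.8. The brightest were transcription regulators that erythroid and megakaryocyte precursors share with stem cells: Lmo2 at 5409 ± 304, Gfi1b at 4413 ± 278 and Myb at 4358 ± 205. The dimmest were Hoxb5, a marker of long-term stem cells, at 115 ± 74.9, Slamf1 (CD150) at 121 ± 19.4 and the cytokine receptor Flt3 at 136 ± 67.7. Among pan-leukocyte genes, Laptm5, a lysosomal membrane protein, averaged 12096 ± 1130, Srgn, the proteoglycan of granules, 8724 ± 658 and Lcp1, an actin bundler, 8302 ± 372. Ptprc, the leukocyte antigen CD45, read 4595, 4757, 5455, 4326 and 4792 on its brightest probe set, a mean of 4785 ± 417, and its other probe set averaged 401. Without the suffixed probe sets, Laptm5 and Ptprc fell to percentiles 4.00 and 62.6. The brightest set dropped was an _x_at set for Laptm5 and an _a_at set for Ptprc. On the brightest probe sets no array of Cdh5 reached the lowest array of Ptprc, but the gap is smaller than the one between the Ptprc probe sets themselves.

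Stromal genes fell into a bright and a dim set. Besides the collagens and Cxcl12, Ibsp, a bone sialoprotein of osteoblasts, averaged 11843 ± 654, and Lepr, the leptin receptor of reticular cells, 7891 ± 494. Adipoq, an adipokine also made by those cells, averaged 4243 ± 351, Pdgfrb, a receptor of pericytes, 4109 ± 383, and Foxc1 and Ebf3, transcription factors of the reticular cells, 3373 ± 431 and 6322 ± 224. The smooth muscle genes were far lower in signal: Acta2 averaged 195 ± 79.3, Myh11 151 ± 50.6 and Tagln 125 ± 67.9. Cspg4, the pericyte antigen NG2, was the only stromal gene not above the level on every array, with arrays between 16.6 and 269.

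The start of Cxcl12 is shown for contrast with the CG-poor lineage promoters above, with each CG pair in capitals.
Cxcl12, chr6:117168285-117168554, plus strand: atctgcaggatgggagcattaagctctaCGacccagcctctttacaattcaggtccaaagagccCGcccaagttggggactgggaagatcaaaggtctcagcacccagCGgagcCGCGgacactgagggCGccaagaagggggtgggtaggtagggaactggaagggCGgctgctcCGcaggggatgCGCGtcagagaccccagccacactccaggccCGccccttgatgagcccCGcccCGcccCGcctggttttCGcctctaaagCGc
The stretch holds 16 CG pairs, against 3 to 6 in the erythroid and 2 or 3 in the S100 stretches.

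Niche and angiocrine genes, which are secreted factors, adhesion molecules and membrane-bound ligands, ranged widely in signal. Of 34 measured genes 32 were above the level on every array, and 7 were among the brightest 1000. After Cxcl12 came the growth factor binding proteins Igfbp5 and Igfbp7, at 14622 ± 442 and 8948 ± 582. Kitl, the stem cell factor, read 3138, 3307, 3839, 3485 and 3505, a mean of 3455 ± 261, and its other 3 probe sets averaged between 2257 and 2903. Csf1, the macrophage growth factor, averaged 5808 ± 318. Csf3, the granulocyte growth factor, lay at or under the level on every array, at 17.1, 5.16, 34.5, 2.63 and 2.43.

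Genes of the cell cycle and of the early stress response were bright. All 29 measured proliferation genes were above the level, with a median percentile of 94.4 and 14 among the brightest 1000. Mki67, the antigen of cycling cells, read 17731, 17583, 18268, 18391 and 18285, close to each other, with a mean of 18052 ± 367. Rrm2, the regulated subunit of ribonucleotide reductase, averaged 13413 ± 790 and Mcm6, a subunit of the replicative helicase, 12684 ± 997. All 26 genes of the immediate early and dissociation list, which cells are known to switch on within minutes of handling as well as on stimulation, were above the level, with a median percentile of 96.2 and 15 among the brightest 1000. Zfp36, which destabilizes cytokine mRNAs, averaged 17097 ± 453, Dnajb1, a co-chaperone, 13085 ± 398, and the AP-1 subunits Fos and Jun 11526 ± 518 and 11037 ± 430. No timing of tissue handling was used here, and its part in these levels was not tested.

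A list of genes from other tissues gave a practical lower scale beside the bacterial probe sets. Of 29 measured, 9 were above the bacterial level on every array, 15 on some and 5 on none, and the median percentile was 22.5. Cela1, a pancreatic elastase, averaged 606 ± 82.7, Prm1, a sperm protamine, 487 ± 99.5 and Acta1, skeletal actin, 196 ± 61.5. Prl, the hormone prolactin, read 4.86, 4.37, 5.10, 4.00 and 6.81. Umod, Krt5, Zp3 and Scgb1a1, genes of kidney, skin, egg and airway, were also at or under the level throughout. If the brightest of these genes on each array is taken as the limit, 15 of 27 pan-endothelial, 6 of 14 sinusoidal and 8 of 16 arterial genes lie above it on every array, against 4939 of all genes.

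Paralogs were compared as families, with the same caution about probe sets. Of 59 families with at least 2 measured members, 44 had a brightest member whose lowest array lay above the highest array of every other member. The gap to the next member passed the 90th percentile seen within single genes (7.54-fold) in 10 families and lay within the median (1.96-fold) in 27. Folds between members are ratios of geometric means, from mean log2 signals, and differ slightly from the ratios of the means printed beside them. The 10 were the alpha and beta globins, ICAM and VCAM, the connexins, the hypoxia-inducible and FOXO factors, the lactate dehydrogenases, the aldolases, elongation factor 1 alpha and the superoxide dismutases. The alpha globins are near-identical copies, as said above. In the globins and aldolases the next member was not above the control level on every array.

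Receptors of endothelial growth factors were close to each other. The VEGF receptors Flt4, Flt1 and Kdr averaged 2447 ± 415, 2092 ± 171 and 1961 ± 172, and their ranges overlapped. Kdr, which carries the main mitogenic VEGF signal, read 1966, 1795, 2217, 2018 and 1810. The co-receptors Nrp2 and Nrp1 averaged 3777 ± 467 and 2983 ± 296, also overlapping. So did Tek, the angiopoietin receptor, at 692 ± 114 and its partner Tie1 at 555 ± 59.5. Among type 2 and co-receptors of the TGF-beta and BMP family, Tgfbr3 stood apart at 4974 ± 84.7, 2.06-fold above Bmpr2.

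Notch2 was the brightest Notch receptor, at 6992, 7376, 6869, 7048 and 7690. Notch1, Notch3 and Notch4 averaged 1018 ± 158, 995 ± 127 and 488 ± 110. The gap of 7.12-fold lies just under the 90th percentile of the probe set scale, and the other probe set of Notch2 averaged 1082. S1pr3 led the sphingosine 1-phosphate receptors at 4831 ± 284, 3.38-fold above S1pr1, the receptor that keeps endothelial junctions closed and guides lymphocyte exit, at 1441 ± 227. Its other probe sets, however, averaged 1123 and 349. Robo4, the Robo receptor of endothelium, averaged 865 ± 91 against 418 ± 67.6 for Robo1, and Pdgfrb averaged 4109 ± 383 against 1242 ± 108 for Pdgfra.

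Among ligands, Vegfc read 7.06-fold above Vegfa, at 4619 ± 750 against 651 ± 89. Vegfb, Pgf and Vegfd averaged 332, 210 and 84.8. The angiopoietins Angpt2 and Angpt1 overlapped at 736 ± 103 and 580 ± 157, and all 4 PDGF ligands were above the level with Pdgfd and Pdgfa overlapping at 396 ± 126 and 381 ± 56.4. Jag1 was the brightest Notch ligand at 1222 ± 200, 2.59-fold above Jag2, and Dll4, the ligand of arterial and tip cells, averaged 125 ± 35.6. Tgfb1 led its family at 1198 ± 185, 5.32-fold above Tgfb3.

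Junction and adhesion families were not all led by the endothelial member. Cdh11, the cadherin of mesenchymal cells, averaged 5136 ± 215, and its lowest array lay above the highest of Cdh5. The 1.63-fold gap is within the median of the probe set scale. Cldn13, a claudin of mouse blood cells, read 3138, 3405, 2790, 2941 and 3946, while Cldn5, the claudin of tight endothelium, averaged 556 ± 131. Gja1, the widely expressed connexin 43, averaged 16847 ± 742, 21.9-fold above Gjc1 and far above Gja4 and Gja5, though its 6 probe sets ranged from 2468 to 16847. Vcam1 stood 8.66-fold above Icam1 at 730 ± 189.

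Esam, an endothelial junction protein, led its family at 1232 ± 135. The selectins Selp and Sele overlapped at 549 ± 149 and 516 ± 142. Among integrin subunits Itga4, the partner that binds Vcam1, averaged 4852 ± 731, and Itgb2 and Itgb3, leukocyte and platelet subunits, overlapped at 3499 ± 412 and 2686 ± 422.

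Basement membrane chains were split sharply. Col4a1 and Col4a2, the chains of the common type IV collagen, averaged 5344 ± 294 and 3547 ± 192, while none of Col4a3, Col4a4, Col4a5 and Col4a6 was above the level on every array, with means of 18.7 to 51.4. Lama4, the laminin chain of vessels, led the alpha chains at 940 ± 93.6, and Lamc1 and Lamb1 overlapped at 2191 ± 240 and 1829 ± 255. Cav1, the caveolin of endothelial caveolae, averaged 4080 ± 488 with Cavin2 next at 2298 ± 145. Nos3, the endothelial nitric oxide synthase, averaged 281 ± 28, 4.07-fold above Nos1, and Nos2, the inducible enzyme, was above the level on 1 array.

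**Figure D3:**
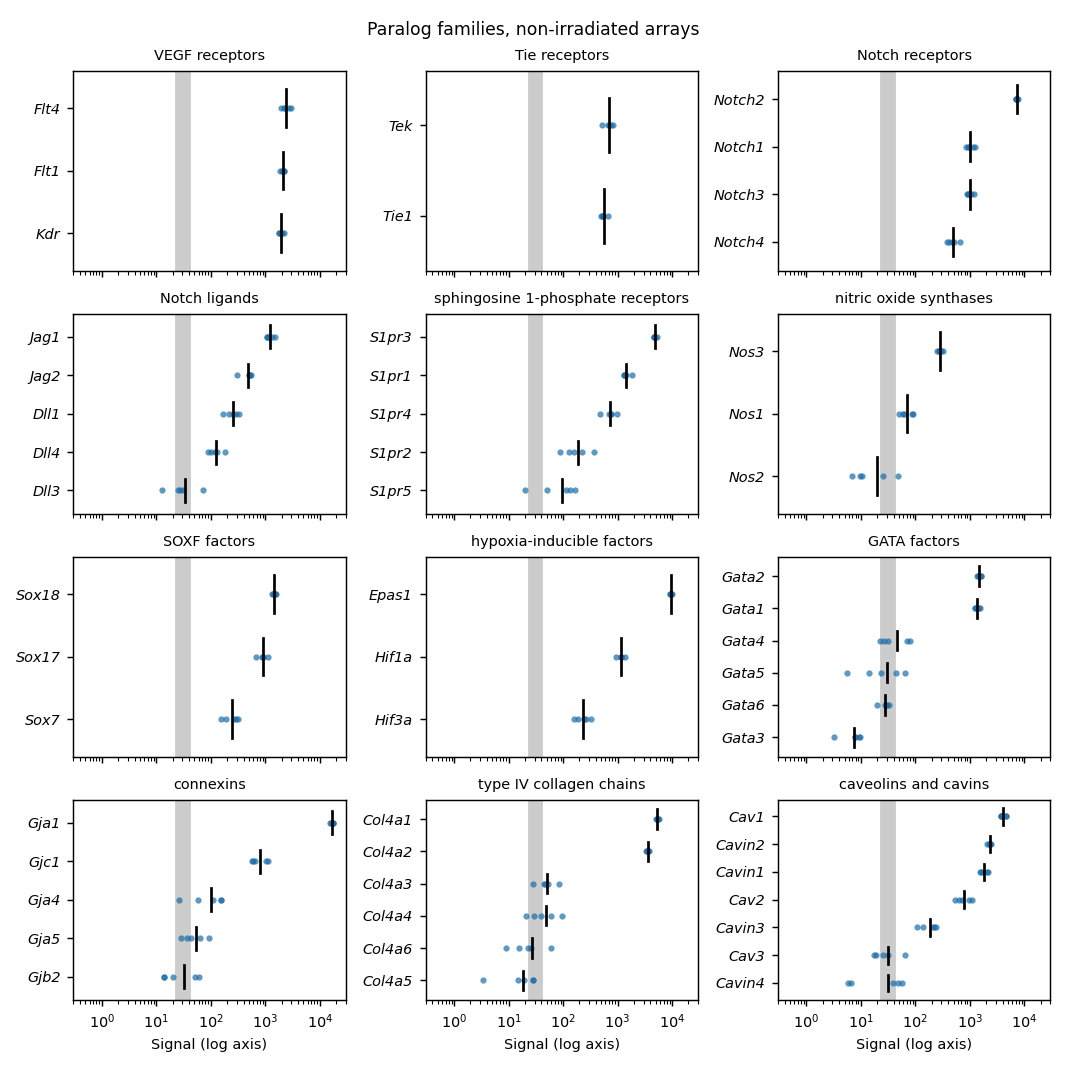
Signals of 12 paralog families in non-irradiated VE-cadherin sorted cells, on a log axis. Each dot is 1 array, the black bar is the mean, and the grey band spans the bacterial control level of the 5 arrays (23.3 to 41.6). The VEGF and Tie receptors overlap within their families, while Notch2, Gja1, Epas1, Col4a1 and Sox18 lie apart from their paralogs, and Col4a3 to Col4a6 reach the grey band.

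Among transcription factors, Epas1 (HIF-2 alpha), the hypoxia factor of endothelium and stroma, read 9251, 9123, 10022, 9595 and 9426. Hif1a averaged 1149 ± 149, so Epas1 was 8.30-fold brighter, and its other probe set, at 4350, was also above Hif1a. Foxo3 averaged 5662 ± 384, 9.69-fold above Foxo4. All 3 SOXF factors of endothelium were above the level: Sox18 averaged 1467 ± 121, Sox17 900 ± 158 and Sox7 245 ± 69.3. Gata2, of stem cells and endothelium, and Gata1, of red cells and platelets, overlapped at 1479 ± 109 and 1357 ± 122, while Gata3, of T cells, lay at or under the level on every array at 7.51 ± 2.57.

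Klf6 averaged 10178 ± 293 among 12 Kruppel-like factors, all above the level, with Klf9 next at 7239 ± 543. Id4 averaged 3836 ± 421, 2.03-fold above Id3, while Id1 and Id2 averaged 514 and 574. Ets2 and Fli1 overlapped as the brightest ETS factors at 2160 ± 254 and 1708 ± 302, and Runx1 averaged 4194 ± 397 against 755 ± 193 for Runx3. Of the Hey and Hes factors, targets of Notch, Hey1 and Heyl overlapped at 782 ± 159 and 615 ± 185.

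In most cell cycle and metabolic families every array of the brightest member lay above those of the others. Only the gaps of the lactate dehydrogenases and aldolases passed the 90th percentile within single genes. The retinoblastoma family, hexokinases and enolases had no separate brightest member. Of the enolases only Eno3 and Eno2 were compared, at 154 and 151, because Eno1 had no probe set with its name alone. Ccnd3 averaged 3234 ± 179, 2.71-fold above Ccnd2, and Ccnd1, the D cyclin of many solid tissues, 504 ± 152. E2f8, a repressor of the E2F family, averaged 5183 ± 348, 1.92-fold above E2f2, and Dnmt1, the maintenance DNA methyltransferase, 4706 ± 168. Ldha averaged 5759 ± 421, 9.62-fold above Ldhb. Slc2a3 averaged 3422 ± 525, 3.49-fold above Slc2a1, the glucose transporter of barrier endothelium. Both values come from suffixed probe sets, and without such sets Slc2a3 stood at percentile 70.2 in place of 94.5. Hk2 and Hk1 overlapped at 1081 ± 120 and 1032 ± 105.

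Aldoa averaged 5814 ± 834 while Aldoc, the brain form, was above the level on 2 arrays. Fabp4, a fatty acid carrier of adipocytes and capillary endothelium, averaged 13354 ± 530, 4.29-fold above Fabp5. Eef1a1, the common elongation factor, averaged 15798 against 124 ± 30.8 for Eef1a2, the form of muscle and nerve. Sod1, the cytosolic superoxide dismutase, averaged 17684 ± 1002, 7.94-fold above the mitochondrial Sod2, and Prdx2, the peroxiredoxin abundant in red cells, 11800 ± 421.

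Genes at the level of the bacterial probe sets, 7.97% of all, were of many kinds, and a few classes are given as a description. Of 39 olfactory receptors, 19 were at or under the level on every array and 2 were above it, and of 32 vomeronasal receptors 18 and 4. By contrast, all 76 mitochondrial ribosomal proteins and all 44 complex I subunits were above it. The share of genes above also depended on the array design: 55.9% of 9183 genes with 1 probe set lay above the level, 80.5% of 4695 genes with 2 and 90.9% of 4315 genes with more. Among listed genes, 511 of 605 measured were above on every array, 77 on some and 17 on none. The 17 include Csf3, Gata3, Hba-x, Timd4, Ncr1 and Tpsab1, as well as Etv2, which specifies endothelium in the embryo, at 5.99 ± 2.78.

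Repeatability rose with signal. The median SD of log2 signal over 5 arrays was 1.02 in the dimmest decile of genes, 1.10 in the next and 0.13 in the brightest. As a coefficient of variation this was 74.6% and 65.4% in those dim deciles and 8.85% in the brightest. Among genes above the level on every array the median SD was 0.29 on the log2 scale, a factor of 1.22, and 115 genes (0.896%) exceeded 1. The largest SD, 1.61, was that of Zfp33b, which read 36.3, 378, 50.5, 268 and 39.8.

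The next most variable were Cpsf4l, Odf3b, Gpr4, Iapp, Stxbp5l, Bpifb1, Cep44, Slc35e4 and Fbxo21, with SDs of 1.32 to 1.43. Cep44, a centrosomal protein, was the only bright gene among them, at 2689, 1826, 872, 685 and 241. Of the 100 most variable genes, 39 were highest on replicate 2 and 40 lowest on replicate 5, and their median mean signal was 149.

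**Figure D4:**
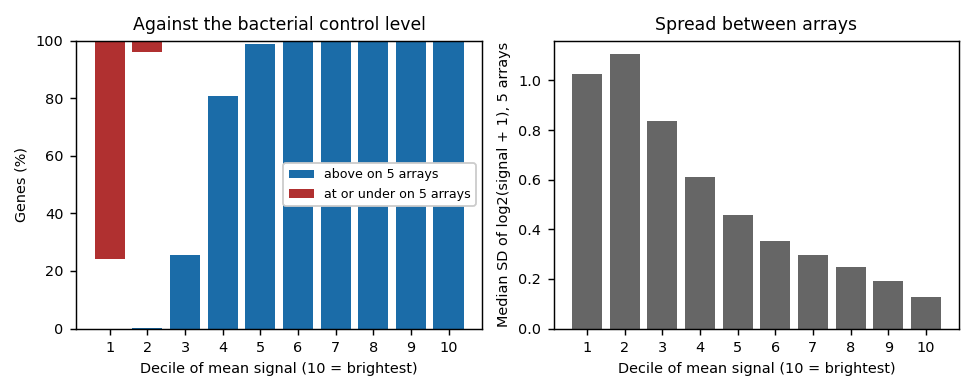
Left, percent of genes above the bacterial control level on all 5 arrays (blue) and at or under it on all 5 (red, drawn from the top) by decile of mean signal, with genes above it on some arrays left blank between them. Right, median SD of log2(signal + 1) over the 5 arrays, which falls to 0.13 in the brightest decile.

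Promoter composition was compared with signal for the 14452 genes that have an entry in the RefSeq promoter table, from 250 bases before to 50 after the start. The promoters of brighter genes held more CG pairs. The mean number per 300-base promoter was 8.71 in the dimmest decile and 23.7 in the brightest, and genes above the level averaged 20.5 against 8.33 for genes at or under it. TATAAA or its reverse complement TTTATA was found in 18.3% of promoters in the dimmest decile, 5.88% in decile 8 and 9.86% in the brightest. The share of TATAAA was thus lowest in the middle to upper deciles and higher again among the brightest genes. These are counts over genes of the same 5 samples, with no test.

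The letters GATAA, searched on both strands, occurred in 19.1% of all promoters. They occurred in 12 of 18 erythroid, 7 of 12 megakaryocyte, 5 of 10 mast cell and basophil and 4 of 5 eosinophil promoters. The shares were lower in 3 of 21 neutrophil, 3 of 17 B lineage, 2 of 11 T and NK and 1 of 24 proliferation promoters. The shares were 3 of 14 in pan-endothelial (5 if any listed start of a gene counts), 6 of 16 in monocyte and macrophage, 7 of 23 in other-tissue and 3 of 4 in sex-linked promoters. Promoters with 0 to 5 CG pairs held them more often than others, in 34.9% of 3190 genes, and the erythroid promoters had a mean of 7.61 pairs. The motif and the lists were set side by side after the signals were known, and a match is not evidence of binding.

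**Figure D5:**
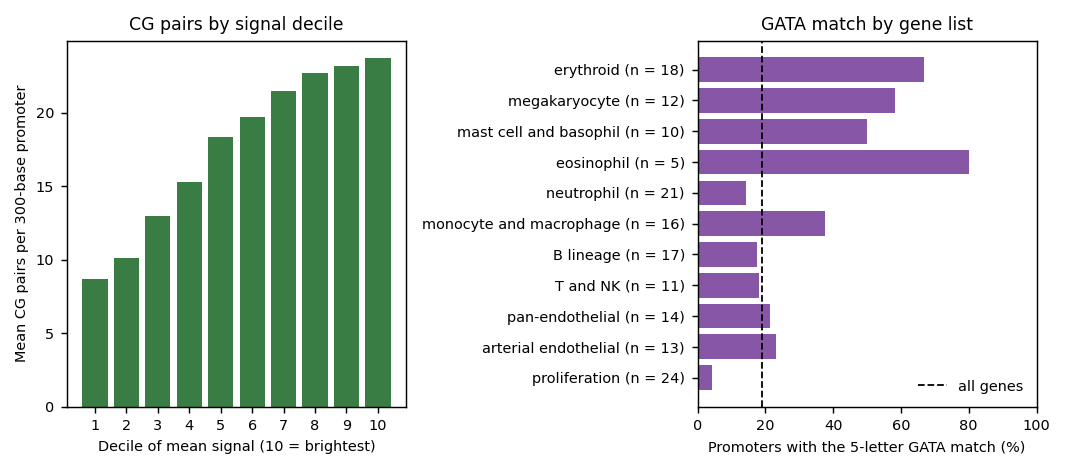
Left, mean number of CG pairs per 300-base promoter by decile of mean signal, 8.71 in the dimmest and 23.7 in the brightest. Right, percent of promoters with GATAA on either strand in 11 gene lists, with the number of promoters in parentheses and all genes (19.1%) as a dashed line.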

How the data were processed

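The authors deposited linear probe set intensities, 1 column per array, and the values show the scaling: without the lowest and highest 2% of its probe sets, every array averages 500. Per the submitters' processing notes, Affymetrix Expression Console and Transcriptome Analysis Console were used. The summarization and background correction are not given in the sources used here. Per the labels' protocols, RNA was purified on RNeasy micro columns, amplified with NuGEN Ovation V2 and biotin-labelled. Precision is limited by having 5 arrays.

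Of 45101 probe sets, 34945 carried 1 gene symbol, 932 several and 9160 none here, and 64 were controls. Symbols were checked against RefSeq by gene number (34741 matched, 0 changed). A gene was represented by its single-symbol probe set with the highest mean over the 5 non-irradiated arrays. It was called above the bacterial control level when it exceeded the 95th percentile of 27 bacterial probe sets on all 5 arrays. Spreads used log2(signal + 1). The mean log2 signal of 18 hybridization control probe sets was 12.77 ± 0.08. The 3' minus 5' difference of the control probe sets was 1.33 ± 0.04 for Gapdh and -0.10 ± 0.04 for Actb.

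The 21 lists and 61 families (654 genes, 605 measured) and the samples were chosen with earlier results of these data known. Of the listed genes 49 have no probe set with their name alone and were not analysed here, and neither was Gapdh outside its control probe sets. The genes named were the 25 brightest, without predicted, clone and RIKEN symbols (1 left out), the 3 brightest members and those at the level in each list, the brightest member of each family and all members of families of up to 4, the 10 most variable, and a set of fixed genes. The other listed genes named were chosen after their values were seen, as were the promoter letters and the gene classes. Promoter sequences and gene starts are RefSeq's (GRCm38.p6), using the first start listed for a gene. Computation used Python 3.11.15, numpy 2.4.6, pandas 2.3.3, scipy 1.17.1 and matplotlib 3.10.9. Of 29 measured other-tissue genes, 9 lay above the bacterial control level on every array. Whether transcripts absent from the cells stay under that level was not tested. Alternatives were another choice of probe set, another level, another scaling, the median over arrays, 16 added in place of 1, and each array left out.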

Additional observations from a re-analysis of the deposited data

Results flagged for a closer look

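In 9 of 217 named genes (4.15%) and in 2 list sums, 1 array lay far from the other 4 by Dixon's criterion for 5 values. Chance alone gives this in about 1 group of 20. Replicate 1 was the lowest for Malat1 (24309, against 31979 to 33611 on the others), for Rrm2 (12023, against 13515 to 13868), for Cela1 (462, against 613 to 660) and for Ldhc (93.0, against 180 to 198). Replicate 3 was the highest for the cyclin Ccna2 (5769, against 5173 to 5342), for Ms4a2 (728, against 428 to 503) and for Tpsab1 (9.28, against 3.30 to 4.54). Replicate 5 was the highest for Hba-a1 (33.6, against 5.37 to 11.9) and replicate 2 for Scgb1a1 (31.4, against 3.63 to 8.85). Hba-a1, Scgb1a1 and Tpsab1 lay at or near the bacterial control level, and Scgb1a1 and Tpsab1 were under it on every array. The summed signal of the T and NK list was highest on replicate 2 (3042, against 2367 to 2558), and that of the dendritic cell list on replicate 4 (6946, against 5832 to 6088). No cause was tested for these values.

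Probe sets outside the comparisons also carried signal. Of 9160 probe sets without a gene name 5069 (55.3%) lay above the bacterial control level on every array, as did 662 of 932 probe sets with several gene names (71.0%). Those with several names include the beta-globin set given above, a set shared by Ly6c2 and Ly6c1 at 6165 ± 312 and a set shared by Rpl3 and Gm12816 at 14980 ± 827.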

How the results depend on the processing

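No paired analysis was possible because only 1 group was described. Of 393 values under alternatives 368 stayed within 1.5 times of the main value. That limit is wide: it also passed 22 pan-endothelial genes above the level in place of 27. Averaging all probe sets of a gene, 65 of the 100 brightest genes stayed among them, and 37 did without the suffixed probe sets (_x_at, _s_at and _a_at). That setting also left 5 mast cell and basophil, 6 dendritic cell and 4 other-tissue genes above the level. It tests fewer genes. The named brightest member stayed the same in 50 of 59 paralog families with the mean of probe sets and in 47 without suffixed sets. With the median bacterial probe set as the level, 332 genes lay at or under it and 17 other-tissue genes above. With the brightest other-tissue gene as the level, added after seeing the data, 4939 genes lay above and 11206 at or under. Above it were 15 pan-endothelial, 6 sinusoidal, 8 arterial, 0 lymphatic, 8 monocyte and macrophage, 4 B lineage, 1 T and NK, 6 megakaryocyte, 1 mast cell and basophil, 3 eosinophil, 2 dendritic cell, 9 stem and progenitor, 13 niche and, by construction, 0 other-tissue genes. Leaving out each array in turn gave 12971 to 13169 genes above, 1523 to 1813 at or under, 45 or 46 families with a separate leader, 98 or 99 of the 100 brightest genes kept and a median SD of 0.28 to 0.29. Any listed start in place of the first, also added later, gave GATAA in 3205 promoters, in 5 pan-endothelial in place of 3 and in 3 pan-leukocyte in place of 1, and moved no other list by over 1.5 times. List medians moved by at most 6.28 percentile points with the mean of probe sets and 11.3 without suffixed sets (pan-leukocyte). Single genes moved more. With the mean of probe sets 142 of 217 named genes moved beyond their spread, by up to 26.1 points (Ighm). Without suffixed sets 121 of 178 did, by up to 95.4 points (Laptm5). The choice of the brightest probe set over all 20 arrays, the only setting that used the irradiated arrays, moved 4 of 217. Low signal limits what can be said: in the dimmest decile the median SD was 1.02 on the log2 scale.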

Other observations

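Some gene groups outside the lists are described beside the 70.5% of all genes above the bacterial control level on every array. Hox genes keep positional identity in mesenchyme and are used again by blood progenitors. They are given by cluster, without a test, and cluster A held more genes with several probe sets than the other clusters. Of all genes with 1 probe set, only 55.9% were above the level. In cluster A 8 of 9 measured genes were above the bacterial control level on every array, led by Hoxa3 at 1109 ± 252 and Hoxa9 at 821 ± 179. In cluster B 4 of 9 were, led by Hoxb4 at 484 ± 147, in cluster C 5 of 7, led by Hoxc10 at 350 ± 80.7, and in cluster D 1 of 8. That gene, Hoxd8, read 697, 172, 338, 283 and 437. The genes at the 5' end, Hoxa13, Hoxb13 and Hoxd13, were at or under the level on every array, and Hoxc13 was above it on 1. Of 72 cytochrome P450 enzymes 23 were above it (31.9%) and 21 at or under it (29.2%), against 70.5% and 7.97% of all genes. Cyp1b1, a form known from stroma and vessels, averaged 7832 ± 202. All 19 hnRNP proteins and all 10 MCM genes were above it. Of 84 potassium channel genes 35 were (41.7%), and Kcnn4, the calcium-activated channel of red cells, averaged 5618 ± 415.

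Sex-linked genes described the animals where the labels are silent. The Y-linked genes Eif2s3y, Kdm5d and Uty averaged 2789 ± 173, 1078 ± 33.4 and 277 ± 45.9 and lay above the level on every array. Xist, the RNA of the inactive X chromosome, read between 17.3 and 151 on its brightest probe set, above the level on 4 arrays, and its other probe sets averaged 44.5 and 22.8. All 5 arrays thus held Y-linked signal, and whether a sample pooled animals cannot be read from it.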
